A study of Mus musculus with 5 samples.

Results

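The genes described here are 9 transcription factor genes of forebrain patterning: Six3, Lhx2, Dlx1, Dlx2, Gsx1, Gsx2, Emx2, Otx1 and Dmrta2. They were given by name, with no threshold on measured values but with earlier results of these data known. They are 9 of the 21887 protein-coding genes in the annotation. The shares of all genes set beside their counts below give scale and are not a test of an unselected set. For each of them, every peak called within 100 kb of the gene body was taken from 4 peak lists made by chromatin immunoprecipitation with sequencing (ChIP-seq) in mouse cell cultures. TLX, the orphan nuclear receptor encoded by Nr2e1, was mapped in brain tumour stem cells (BTSC) and in neural stem cells (NSC) that had been transduced with a retrovirus for TLX carrying a 3xTY1 tag and was precipitated with an antibody to TY1. H3K27ac, the acetylated form of histone H3 at lysine 27 that is found at promoters and enhancers in use, was mapped in untransduced BTSC and NSC. A sample without antibody, from cultures carrying the empty vector MSCV-neo, completes the 5 samples and was not used here.

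Each group is 1 library, so the values below have no replicate check and no test compares the cultures. The sources used here do not give mouse strain, age, genotype or the origin of the tumour cells, and the peaks of TLX are those of a tagged protein delivered by a virus. No TY1 precipitation from cells without the tag was analysed here. Read numbers are likewise not given, so the depth is unknown, and a peak missing from a list says only that none was called in that library. The BTSC lists hold 1436 TLX peaks and 31597 H3K27ac peaks covering 74.1 Mb, against 7458 TLX peaks and 31266 H3K27ac peaks covering 68.5 Mb in the NSC lists. The TLX list of BTSC is thus much the shorter, while the H3K27ac lists are of nearly equal size. All positions are in mm10, and the gene positions are those of RefSeq for GRCm38.p6.

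In the early forebrain, regional identity is set by transcription factors that are expressed in overlapping domains and repress one another. Emx2, Lhx2 and Dmrta2 act in the dorsal telencephalon, where the cortex and hippocampus form. Gsx1, Gsx2, Dlx1 and Dlx2 act in the ventral telencephalon, the ganglionic eminences, from which striatal neurons and cortical interneurons arise. Six3 specifies the most anterior neural plate and the eye field and represses Wnt signalling there, and Otx1 acts in the cortex and the sense organs. Most of these factors bind DNA through a homeodomain, while Dmrta2 binds it through a DM domain, a zinc-binding module. Neural stem cells in culture are known to keep part of the regional programme of the tissue they came from.

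Sequences are shown for 5 of the promoters because the peaks described below lie on them: those of Six3, Dlx1, Emx2 and Dmrta2 lay under a TLX peak of NSC, and those of Six3 and Gsx1 lay in H3K27ac of NSC and not of BTSC. Each is the 250 bases before the annotated transcription start, read on the gene's strand from the RefSeq promoter table (GRCm38.p6), in which 8 of the 9 genes were matched. Capitals mark matches, on either strand, to any of 8 motifs searched. These were AAGTCA (the core bound by TLX), TAATTA (homeodomain), TGATAC (the class of Six3 and Six2), GGATTA (OTX), CAGCTG (E box), ACAATG (SOX), TGACTCA (AP-1) and TTGGCA (NFI). No match overlapped another.
Six3 (chr17:85620584-85620833, plus strand): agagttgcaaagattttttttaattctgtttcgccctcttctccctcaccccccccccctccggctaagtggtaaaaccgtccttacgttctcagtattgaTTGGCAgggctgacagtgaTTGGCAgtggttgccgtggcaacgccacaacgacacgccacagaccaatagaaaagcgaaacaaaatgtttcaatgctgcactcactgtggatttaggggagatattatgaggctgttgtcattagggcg
Gsx1 (chr5:147188446-147188695, plus strand): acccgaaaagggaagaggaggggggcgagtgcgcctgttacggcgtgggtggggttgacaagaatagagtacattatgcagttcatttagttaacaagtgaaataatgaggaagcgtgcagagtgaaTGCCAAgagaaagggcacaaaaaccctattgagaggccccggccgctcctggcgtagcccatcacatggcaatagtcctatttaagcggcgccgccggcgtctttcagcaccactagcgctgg
Dlx1 (chr2:71529195-71529444, plus strand): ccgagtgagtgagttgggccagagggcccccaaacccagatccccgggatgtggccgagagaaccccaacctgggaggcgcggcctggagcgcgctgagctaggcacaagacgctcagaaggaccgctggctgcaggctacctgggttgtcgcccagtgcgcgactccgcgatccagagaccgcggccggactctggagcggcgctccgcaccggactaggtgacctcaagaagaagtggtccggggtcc
Emx2 (chr19:59458440-59458689, plus strand): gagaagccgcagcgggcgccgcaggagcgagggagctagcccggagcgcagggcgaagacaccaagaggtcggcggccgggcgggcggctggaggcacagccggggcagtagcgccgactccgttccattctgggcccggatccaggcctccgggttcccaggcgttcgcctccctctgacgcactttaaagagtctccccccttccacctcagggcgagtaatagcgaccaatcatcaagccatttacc
Dmrta2 (chr4:109977775-109978024, plus strand): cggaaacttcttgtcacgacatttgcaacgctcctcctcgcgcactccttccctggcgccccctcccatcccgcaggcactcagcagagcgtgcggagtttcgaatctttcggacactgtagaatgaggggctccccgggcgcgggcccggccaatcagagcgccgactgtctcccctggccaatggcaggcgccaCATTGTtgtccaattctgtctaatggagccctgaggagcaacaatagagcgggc

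The Six3 promoter held the letters TTGGCA in 2 places, beginning 149 and 130 bases before the start. The Gsx1 promoter held them once on the other strand, beginning 123 bases before it, and the Dmrta2 promoter held ACAATG on the other strand, 54 bases before it. Of the 21263 promoters of protein-coding genes of the same length, 11.5% held TTGGCA and 9.35% held ACAATG. None of the 9 promoters of the members, Lhx2 counting with 2 starts and Otx1 with none, held AAGTCA, which 11.5% of all promoters held. The other 5 motifs were also in none of the 9, while of all promoters 4.31% held TAATTA, 3.87% held TGATAC, 5.82% held GGATTA, 12.1% held CAGCTG and 4.06% held TGACTCA. In base composition the shown promoters differed: GC content was 48.8% at Six3, 54.0% at Gsx1, 61.6% at Dmrta2, 67.2% at Emx2 and 68.0% at Dlx1, beside a median of 55.6% over all promoters.

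By H3K27ac-covered length, the 9 genes differed in direction between the cultures. Six3 and Gsx1 had no H3K27ac peak within 100 kb in BTSC and had 16908 and 7467 covered bp in NSC. Emx2 had 7613 covered bp in BTSC against 18595 in NSC, and Otx1 stood the other way with 21723 in BTSC against 12862 in NSC. The other 5 lay between these. Dlx1 had 12761 covered bp in BTSC against 15909 in NSC, and Dlx2 had 13621 in BTSC against 17506 in NSC. Gsx2 had 23318 in BTSC against 23330 in NSC, Lhx2 had 7349 in BTSC against 6713 in NSC, and Dmrta2 had 7917 in BTSC against 5970 in NSC. A gene was called where one culture had at least 1.5 times the covered length of the other. By that measure 3 of the 9 (Six3, Gsx1 and Emx2) were called lower in BTSC, beside 12.5% of the 18473 protein-coding genes with any covered bp, and 1 (Otx1) was called higher, beside 18.1%. The 2 members with no covered bp in BTSC compare with 2.45% of those genes. The median of the 9 was 7917 bp in BTSC and 15909 bp in NSC, while that of all genes with any covered bp was 10850 bp in BTSC and 9854 bp in NSC. Dlx1 and Dlx2 are neighbours and share nearly all of their peaks, so the 9 genes are 8 loci. In bulk ChIP-seq a smaller share of cells with a mark and less of it per cell cannot be told apart. On the chromosomes that carry the 9 genes the covered length of the BTSC list was between 1.03 and 1.13 times that of the NSC list, beside 1.08 over all chromosomes.

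**Figure D1:**
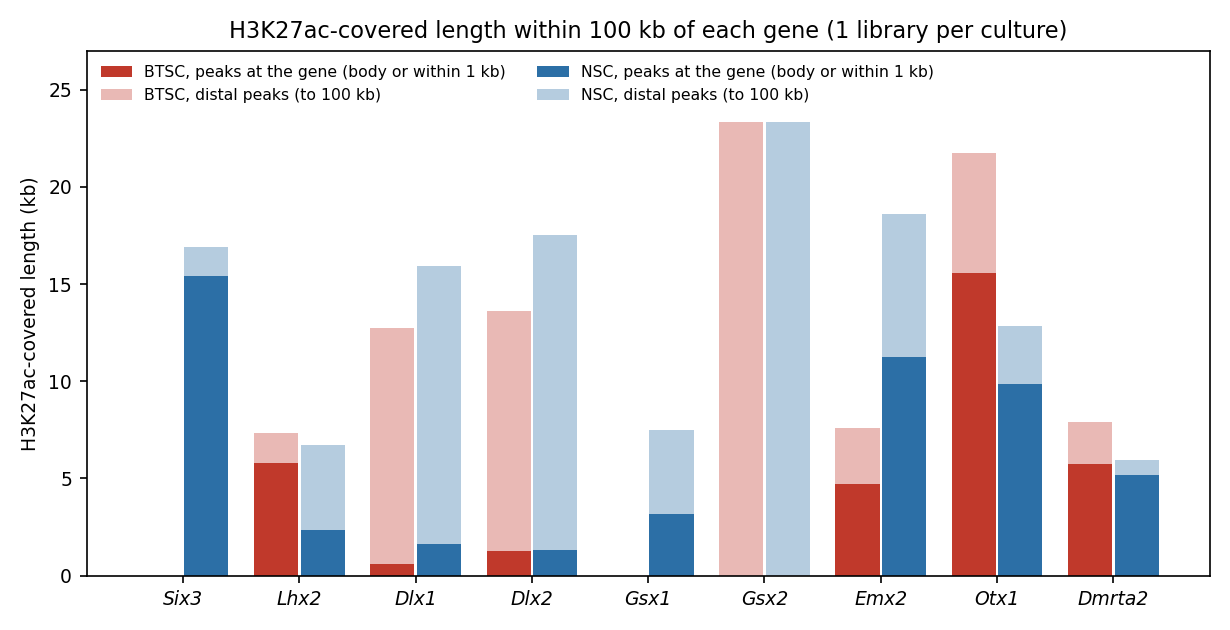
Bars give the H3K27ac-covered length (kb) within 100 kb of each gene in BTSC (red, left) and NSC (blue, right), dark for peaks on the gene body or within 1 kb of it and pale for distal peaks, with 1 library each. Six3 and Gsx1 have no bar in BTSC, Emx2 is shorter in BTSC (7613 against 18595 bp), Otx1 is longer (21723 against 12862 bp), and the bars of Gsx2 are almost equal and wholly distal.

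**Figure D2:**
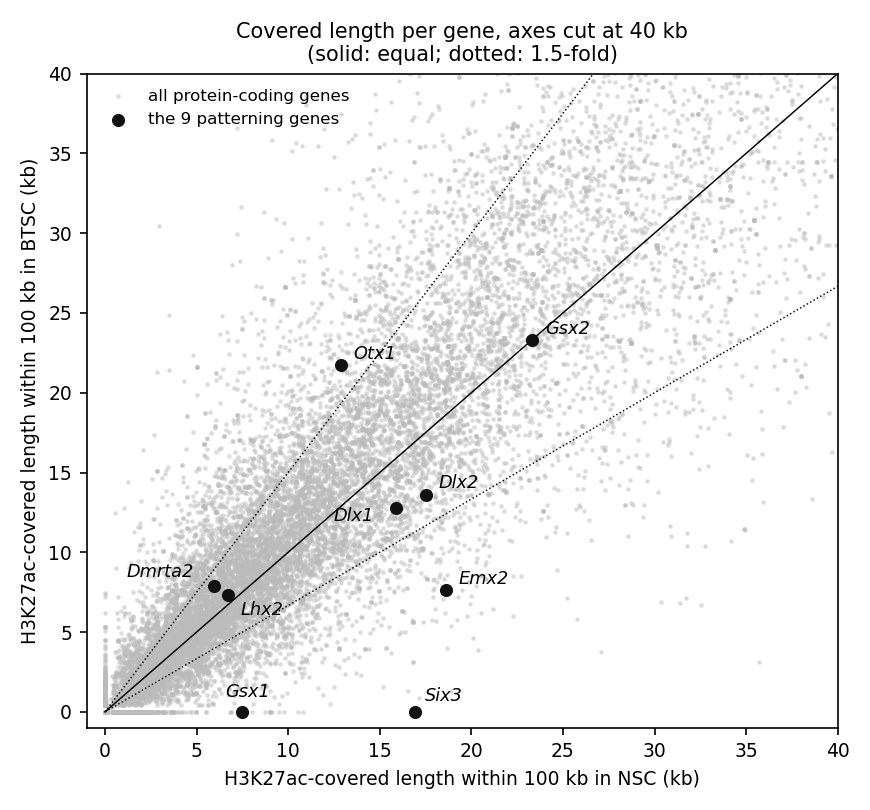
Each grey point is a protein-coding gene, with its H3K27ac-covered length within 100 kb in NSC across and in BTSC upward (kb, axes cut at 40 kb), and the 9 patterning genes are black and named. Six3, Gsx1 and Emx2 lie below the lower dotted line of 1.5-fold, Otx1 lies above the upper one, and the other members lie between.

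Marker genes of several cell types were counted by H3K27ac within 1 kb of a gene end. Of all protein-coding genes, 51.7% had it in BTSC and 52.2% in NSC. Of 10 neural stem cell genes, 9 had H3K27ac at an end in BTSC and 9 in NSC, with Msi1 in neither. Microglial genes had 0 of 6 in both, fibroblast and pericyte genes 0 of 4 in both, and endothelial genes 0 of 5 in BTSC and 1 of 5 in NSC. Astrocyte genes had 4 of 5 in BTSC and 3 of 5 in NSC, and oligodendrocyte lineage genes 6 of 7 in BTSC and 5 of 7 in NSC. The counts thus do not single out neural stem cells among these types. Neuronal genes had 1 of 6 in BTSC and 4 of 6 in NSC. The 3 in the NSC list only did not share a direction in covered length within 100 kb. Dcx had 0 bp in BTSC and 2355 in NSC, Syt1 had 1253 in BTSC and 2387 in NSC, and Elavl3 had 14006 in BTSC and 12368 in NSC. Over all 6 neuronal genes, covered length within 25 kb ran from 0 (Dcx) to 5910 bp in BTSC, with a sum of 14840 bp. In NSC it ran from 0 (Snap25) to 6287 bp, with a sum of 20512 bp. The sums of the other neural types also differed between the cultures. Astrocyte genes had 102432 bp in BTSC and 68991 in NSC, and neural stem cell genes 220024 in BTSC and 210282 in NSC. Oligodendrocyte lineage genes had 126133 bp in BTSC and 137149 in NSC. The part of the neuronal genes in the results on Six3 and Gsx1 was not tested.

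Six3, the factor of the anterior neural plate and eye field, was marked in NSC by 1 domain that covered nearly the whole gene. The gene lies at chromosome 17, 85613608 to 85626191, and the NSC domain ran from 85614123 to 85629541, a width of 15419 bp with a fold enrichment of 17.1 and a −log10 q of 92.3. Fold and q are the authors' values for each peak within its own list. No BTSC peak lay on it, and the nearest H3K27ac peaks of BTSC were 470 kb away on the lower side and 173 kb on the higher side. Of the 6579 NSC peaks that no BTSC peak overlapped, the Six3 domain was the widest and ranked 3 by q. Among the 167 NSC peaks at least as wide, it was the only one without a BTSC peak, and among the 1983 with at least its q it was 1 of 3 without one. In the difference in covered length within 100 kb, 101 of the 21887 genes had a larger deficit in BTSC. The NSC list also held small peaks inside Six2, the adjacent paralogue known for its role in kidney progenitors, and just past its end. Their widths were 496 and 993 bp, and these too lacked a BTSC peak. The domain extends over part of the long noncoding RNA gene Six3os1, and ChIP-seq does not say which strand is transcribed.

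In NSC, 5 TLX peaks lay in that domain, and BTSC had none there. Their folds were 4.40, 4.78, 4.02, 3.63 and 4.63 in order along the chromosome, with −log10 q from 3.96 to 7.92, all below the median of 8.66 of the NSC TLX list. The widest, from 85619911 to 85621999, lay over the promoter printed above, with its summit 173 bp after the start. The Six3 domain thus carried many weak peaks and no strong one. Of all 31266 NSC H3K27ac peaks, whose median width was 1575 bp, 12 held 5 or more TLX peaks. In BTSC the nearest TLX peak was 523 kb away on one side and 628 kb on the other.

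Gsx1, a homeobox gene of ventral progenitors, showed the same absence in BTSC at lower values. Its NSC list held a peak of 3153 bp over the start of the gene (fold 5.41, −log10 q 14.7), at chromosome 5, 147186277 to 147189429. Another lay 32.0 kb from the gene body on the lower side, with 2396 bp and a fold of 6.79, and the last lay 53.4 kb away, with 1918 bp and a fold of 2.77. None of the 3 overlapped a BTSC peak, and the nearest H3K27ac peak of BTSC was 110 kb from the gene, just outside the window. The peak at 32.0 kb held the 1 TLX peak near Gsx1, from 147155282 to 147156116, with a fold of 10.1 and a −log10 q of 33.7. That value ranks 281 of the 7458 TLX peaks of NSC, and the nearest TLX peak of BTSC was 900.4 kb away. Pdx1, the pancreatic homeobox gene that lies within the same 100 kb, had no peak of any list in the window.

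Gsx2, the paralogue that sets the identity of the lateral ganglionic eminence, differed from Gsx1. No H3K27ac peak of either culture lay on the gene or within 1 kb of it. The nearest was 3.36 kb away in BTSC, with a fold of 3.62, and 2.91 kb away in NSC, with a fold of 5.71. All 7 BTSC peaks and all 8 NSC peaks in the window overlapped a peak of the other culture. Much of the covered length lay at other genes: the peak at the end of Chic2 had a fold of 12.9 in BTSC and 11.5 in NSC. Inside Pdgfra, the receptor gene of oligodendrocyte precursors, BTSC had 1 peak of 9551 bp where NSC had peaks of 2853 and 5229 bp. TLX peaks were called in NSC only, 4.79 kb beyond the gene outside H3K27ac of both cultures (fold 4.40) and 76.0 kb on the lower side near Chic2 (fold 5.74).

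At the linked Dlx1 and Dlx2 genes, which act in the differentiation of forebrain GABAergic neurons, H3K27ac was found in both cultures at the same sites. Over the start of Dlx1 the peak was 623 bp wide with a fold of 3.81 and a −log10 q of 5.92 in BTSC, and 1644 bp wide with a fold of 9.05 and a −log10 q of 34.5 in NSC. At the start of Dlx2 the peaks were 1250 bp with a fold of 4.91 in BTSC and 1318 bp with a fold of 6.61 in NSC. Beyond Dlx2 on the higher side lay the widest peaks of the locus, 6114 bp in BTSC and 6231 bp in NSC, 77.7 and 77.6 kb from the gene, with folds of 7.15 and 12.7. All 7 BTSC peaks and all 7 NSC peaks of the Dlx2 window had a counterpart, so that the same sites were called in both cultures, with different widths. The folds are values within each list and do not measure a difference between the cultures. Both genes were past 1.5-fold lower in BTSC in windows of 25 and 250 kb. In the wider one Dlx1 had 25227 covered bp in BTSC and 42055 in NSC. TLX peaks were called in NSC only. One lay over the Dlx1 start (71529089 to 71530011, fold 4.21) with its summit 57 bp after it, 2 lay in the distal H3K27ac peaks beyond Dlx2 (folds 3.82 and 4.59), and the strongest lay inside Metap1d, 44.0 kb from Dlx1 and outside H3K27ac of both cultures (fold 7.27, −log10 q 18.7).

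Emx2, a homeobox gene of the dorsal telencephalon and hippocampus, had H3K27ac at its start in both cultures, over a shorter stretch in BTSC. The domain on the gene was 4706 bp in BTSC, from 59457489 to 59462194 on chromosome 19, against 11245 bp in NSC, from 59456492 to 59467736. The BTSC domain lay wholly inside the NSC one and ended before the higher end of the gene at 59465357, while that of NSC ran 2379 bp past it. The 2 domains had similar folds in their own lists, 17.5 in BTSC and 16.1 in NSC, with −log10 q of 94.9 and 86.5. In NSC 3 further peaks in the window, at 69.0 and 25.5 kb on the lower side and 75.8 kb on the higher side, had no BTSC counterpart. The antisense RNA gene Emx2os lies next to the start on the lower side, partly under the same domains.

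The 1 TLX site near the 9 genes that was called in both cultures lay 64.1 kb in BTSC and 64.0 kb in NSC from Emx2. It ran from 59393888 to 59394563 in BTSC, with a fold of 8.70 and a −log10 q of 21.1, rank 112 of 1436. In NSC it ran from 59393824 to 59394697, with a fold of 14.5 and a −log10 q of 60.2, rank 73 of 7458. An H3K27ac peak contained it in both cultures, 2907 bp wide in BTSC and 3312 bp in NSC. On the gene itself, BTSC had no TLX peak and NSC had 4, all with the same fold of 4.21. The first covered the promoter printed above, and the last lay in the part of the NSC domain that the BTSC domain did not reach. Folds of this list take a limited set of values, and 366 of its peaks carry exactly this one, so the 4 cannot be ranked among themselves. The Emx2 and Six3 domains were 2 of the 29 NSC H3K27ac peaks, 0.0928% of all, that held 4 or more TLX peaks. They were 11245 and 15419 bp wide, against a median of 1575 bp over that list. A wide peak has room for more TLX peaks, and no share among peaks of like width was computed.

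Otx1, a homeobox gene of the cortex and sense organs, had the longer domain in BTSC. It measured 15571 bp in BTSC, from 21996161 to 22011731 on chromosome 11, with a fold of 17.8 and a −log10 q of 95.1. The NSC domain measured 9835 bp, from 21999370 to 22009204, with a fold of 12.1 and a −log10 q of 57.6, and lay wholly inside that of BTSC. Both reached past the gene, which ends at 22001651, and over the near end of Ehbp1 at 22005825, so the acetylated length cannot be given to Otx1 alone. A neighbouring peak inside Ehbp1 was 3855 bp in BTSC and 2026 bp in NSC. Otx1 was the 1 member with no TLX peak within 100 kb in either culture, the nearest being 586 kb away in BTSC and 422 kb in NSC. Of all genes, 1655 had a larger surplus of covered length in BTSC.

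Dmrta2, a DM-domain factor that maintains progenitors of the caudomedial cortex, was acetylated over most of its length in both cultures. The domain was 5723 bp with a fold of 12.5 in BTSC and 5155 bp with a fold of 8.62 in NSC. It was also the 1 member with a TLX peak at the gene in both cultures, but the peaks did not overlap. The BTSC peak lay in the later part of the gene, from 109981676 to 109982450 on chromosome 4, with a fold of 4.58 and a −log10 q of 5.33. In NSC the peak lay over the promoter printed above, from 109977511 to 109978661, with a fold of 3.82 and a −log10 q of 4.57. Between them were 3015 bp, and their summits, 4012 bp after the start in BTSC and 221 bp after it in NSC, were 3791 bp apart. Both are weak peaks of their lists, whose median −log10 q is 7.54 in BTSC and 8.66 in NSC, and both lay in H3K27ac of both cultures.

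Lhx2, a LIM-homeodomain selector of cortical identity, had H3K27ac of BTSC and of NSC at 1 of its 2 annotated starts. The second start, at 38351308 on chromosome 2, lay in a peak of 2768 bp with a fold of 13.9 and a −log10 q of 68.0 in BTSC, and in one of 1819 bp with a fold of 8.25 and a −log10 q of 29.1 in NSC. BTSC had 2 more peaks further inside the gene, of 1763 and 1289 bp, that NSC lacked. At the first start, at 38339281, BTSC had no peak nearer than 10980 bp, and NSC had a weak one of 515 bp beginning 133 bp away, with a fold of 2.72 and a −log10 q of 2.34. On the gene the covered length was 5820 bp in BTSC and 2334 bp in NSC, and away from it 1529 bp in BTSC and 4379 bp in NSC. Within 10, 25 or 50 kb Lhx2 was therefore called higher in BTSC, with 5820 bp in BTSC in each window against 2334, 2426 and 3708 bp in NSC. The 1 TLX peak in the window, in NSC, lay at an end of Dennd1a 51.8 kb away (fold 4.59), within an H3K27ac peak of both cultures.

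**Figure D3:**
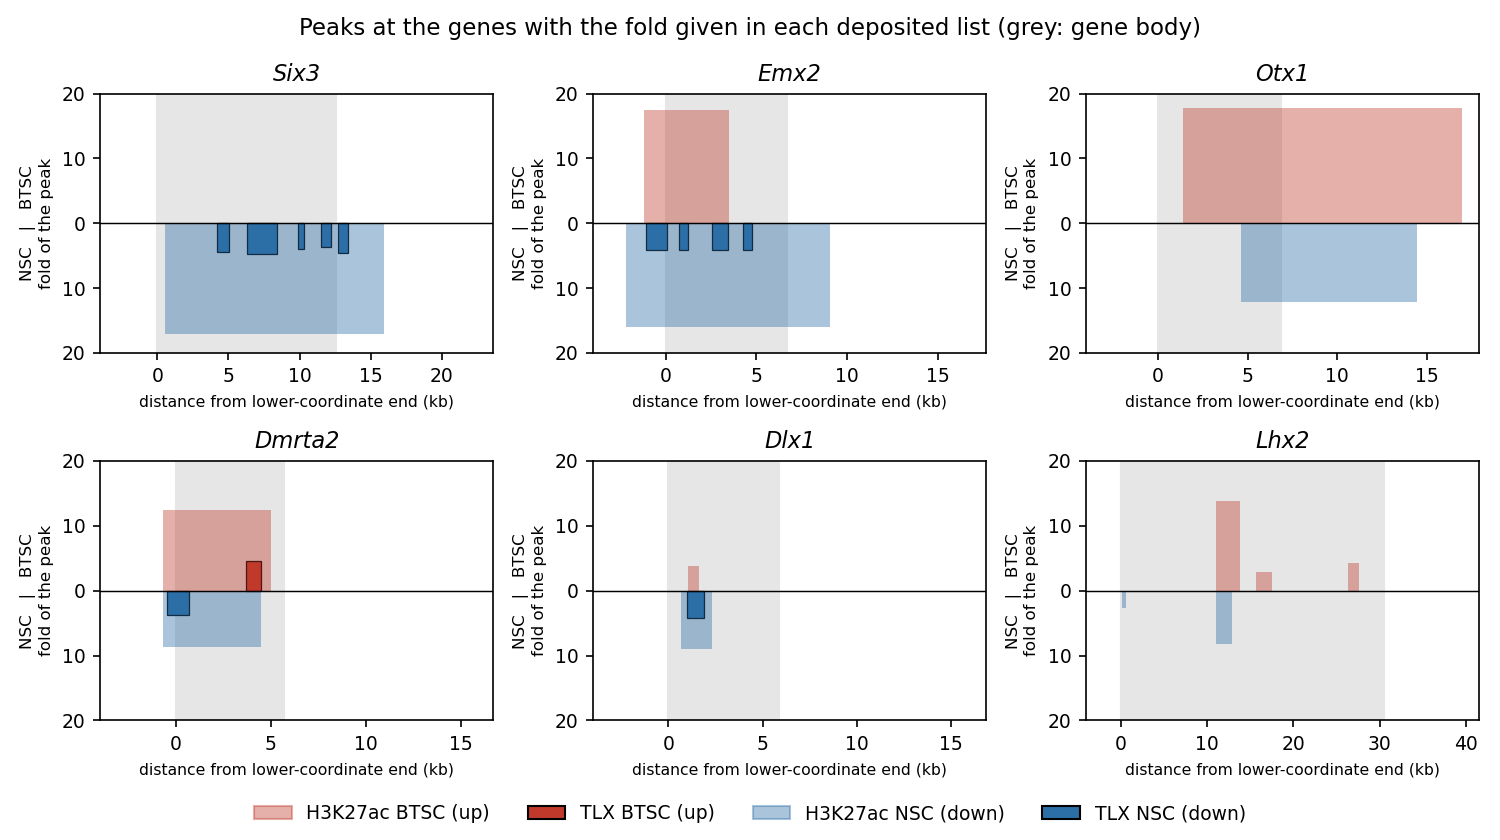
Boxes are called peaks at 6 of the genes, placed by distance from the gene's lower-coordinate end (kb), with the fold of the peak in its own list as height, BTSC upward in red and NSC downward in blue. H3K27ac is pale, TLX is outlined and the gene body is grey. At Six3 the 15419 bp domain and its 5 TLX peaks appear in NSC only, at Emx2 and Otx1 one domain is longer than the other, and at Dmrta2 the TLX peaks sit at different places.

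Whether a gene of this group counts as acetylated in NSC only depended on where its start was taken to be. With a peak within 1 kb of either end of the gene body, 4 members had H3K27ac in BTSC (Dlx2, Dmrta2, Emx2 and Otx1), beside 51.7% of all protein-coding genes, and 8 had it in NSC, beside 52.2%. No member was in the BTSC list only, beside 2.09%, and 4 were in the NSC list only (Dlx1, Gsx1, Lhx2 and Six3), beside 2.62%. Dlx1 and Lhx2 left that class when the annotated starts of transcription were used. The start of Dlx1 lies 1332 bp inside the annotated gene body and was covered by a peak in both cultures, and the second start of Lhx2 was covered in both as described above. A peak lay on a start of 5 of the 8 members in the promoter table in BTSC, beside 50.8% of 17492 genes, and of 7 in NSC, beside 51.5%. Otx1, which had H3K27ac at a gene end in both cultures, is not among these 8. Six3 and Gsx1 were thus the 2 members whose start was covered in NSC and not in BTSC. Of the 8, Gsx2 alone had no covered start in either culture.

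TLX peaks lay within 100 kb of 2 of the 9 genes in BTSC (Dmrta2 and Emx2), beside 16.1% of all protein-coding genes, and of 8 in NSC, beside 55.5%. For 6 members TLX was called in NSC only, beside 40.3% of genes. When the NSC list was cut to as many peaks as the BTSC list, by q, 4 members had a TLX peak in NSC, beside 15.9% of genes. These were Emx2, Gsx1, and Dlx1 and Dlx2, which share 1 peak. Around all 9, BTSC had 2 TLX peaks and NSC had 19, of which 11 lay on or within 1 kb of a member. No BTSC peak covered a start of the same 8 members, beside 1.35% of genes, whereas NSC peaks covered the starts of 4 (Six3, Dlx1, Emx2 and Dmrta2), beside 9.92%. These 4 peaks had low values, with folds of 3.82 to 4.78.

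The NSC TLX peaks near these genes mostly had low values, at which few peaks of the whole list were found again in BTSC. Of the 19, 15 had a −log10 q under the list's median of 8.66. Of the 15 with a −log10 q under 8, 0 overlapped a BTSC peak, beside 4.87% (95% interval 4.19 to 5.62) of all 3614 such peaks. Of the 2 with a value from 8 to 20, 0 did, beside 17.4% (16.0 to 18.8) of all. Of the 2 at 20 or more, the one near Emx2 did and the one near Gsx1 did not, beside 54.5% (51.2 to 57.8) of all. Intervals are exact Clopper-Pearson ones and cover counting error only. Most of these peaks lay at sites acetylated in the untransduced cultures, and H3K27ac of the transduced cells was not among the lists. Both BTSC TLX peaks lay in H3K27ac of BTSC, where the share over the whole list was 93.2%. In NSC it was 17 of 19 (89.5%, 66.9 to 98.7), with 91.6% over the whole list.

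**Figure D4:**
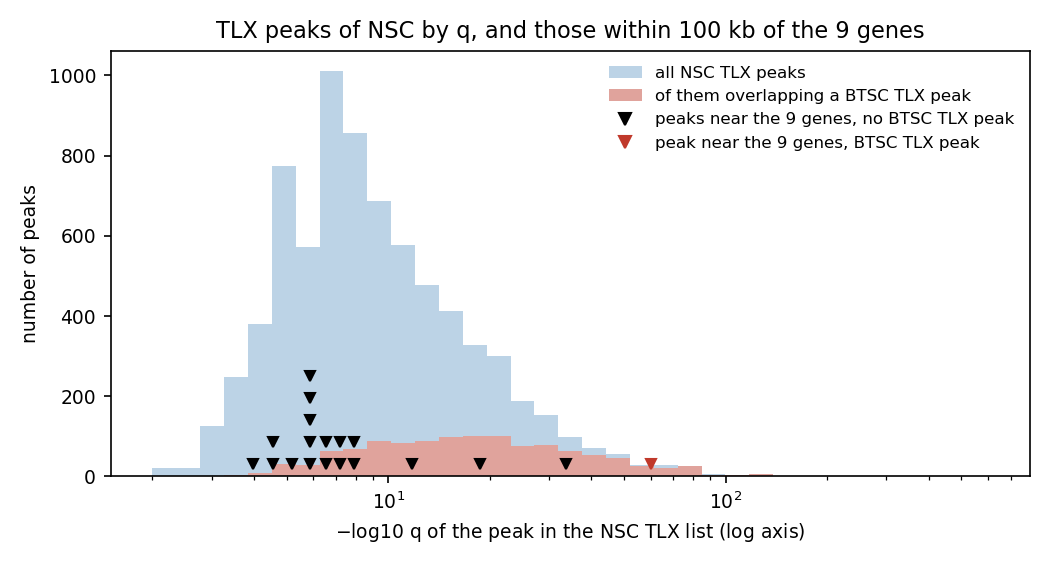
The histogram counts all 7458 NSC TLX peaks by their −log10 q (log axis), in blue, and those that overlap a BTSC TLX peak, in red, and triangles mark the 19 peaks within 100 kb of the 9 genes, stacked where values are equal. Of the 19, 15 lie below 8, and the 1 red triangle is the site near Emx2 with a −log10 q of 60.2.

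Over the 8 loci, 22 of the 26 BTSC H3K27ac peaks overlapped an NSC peak (84.6%, 65.1 to 95.6), with 76.8% over the whole list. Of the 36 NSC peaks around these loci, 23 were met by a peak of BTSC (63.9%, 46.2 to 79.2), with 79.0% over the whole list. The 13 NSC peaks without a counterpart lay around Six3, Gsx1, Emx2 and Lhx2, with 3 each, and Dmrta2, with 1. Of the 4 BTSC peaks without one, 2 were inside Lhx2, 1 was inside Ehbp1 near Otx1 and 1 was inside Faf1 near Dmrta2. Dlx1, Dlx2 and Gsx2 had none of either kind.

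**Figure D5:**
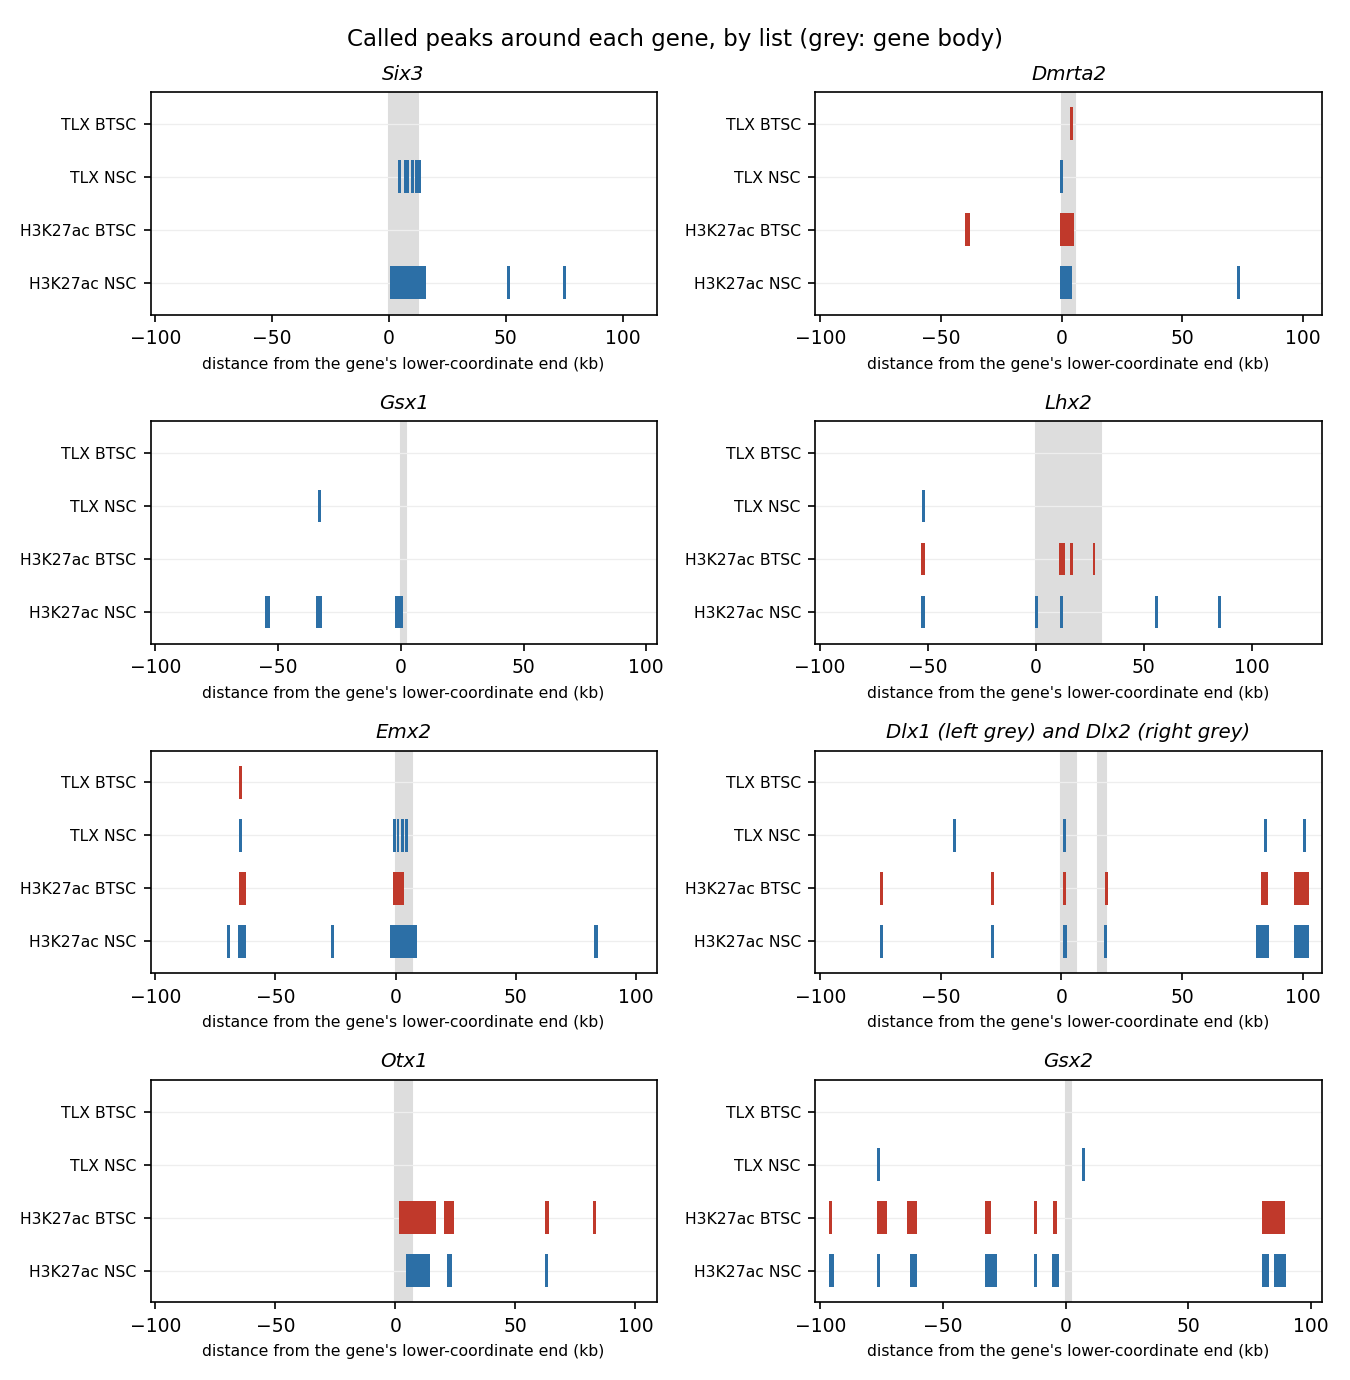
Bars mark called peaks from 100 kb below to 100 kb above each gene, by distance from the gene's lower-coordinate end (kb), with a row each for TLX in BTSC, TLX in NSC, H3K27ac in BTSC and H3K27ac in NSC. Grey marks the gene body, and the narrowest peaks are drawn wider to stay visible. The BTSC rows are empty at Six3 and Gsx1, and the rows of both cultures match at Dlx1, Dlx2 and Gsx2 for H3K27ac.

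Other patterning genes were taken from 4 lists drawn up by region, with covered bp counted within 100 kb as for the members. Of 20 further dorsal and pan-telencephalic genes, 3 had H3K27ac at an end in the BTSC list only and 0 in the NSC list only, beside 2.09% and 2.62% of all genes. The 3 were Neurog1 and Neurog2, proneural factors of the cortex, and Fezf2, a factor of deep-layer cortical neurons. Fezf2 had 4170 covered bp in BTSC and 0 in NSC. Of 19 further ventral genes, 0 were in the NSC list only. Dlx5 and Dlx6, the linked pair related to Dlx1 and Dlx2, had 1190 covered bp in BTSC and 1874 in NSC. Lhx8 had 0 in BTSC and 646 in NSC, Lhx6 had 6180 in BTSC and 2546 in NSC, and Nkx2-1 had 0 in both, all 3 being genes of the medial ganglionic eminence.

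Of 12 genes of the eye and hypothalamus, Vax2 and Tbx2 were in the BTSC list only and Nkx2-2 and Tbx3 in the NSC list only. Nkx2-2 had 878 covered bp in BTSC and 17141 in NSC, while Six6, the paralogue of Six3 in the eye field, had 735 in BTSC and 0 in NSC. Of 20 genes of the midbrain, hindbrain and spinal cord, 1 was in the BTSC list only (Hoxa2) and 0 in the NSC list only. Among them Pax8 had 1293 covered bp in BTSC and 18900 in NSC, a larger deficit in BTSC than that of Six3. By the 1.5-fold rule the dorsal list had 1 gene lower and 5 higher in BTSC of 19 with any covered bp, and the ventral list 3 lower and 6 higher of 15. The eye and hypothalamus list had 2 lower and 3 higher of 11, and the midbrain, hindbrain and spinal cord list 5 lower and 3 higher of 16. Over all genes 12.5% were lower and 18.1% higher.

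By the pattern of no covered bp within 25 kb of the gene in BTSC and some in NSC, Six3 came first of 587 genes by its NSC length of 15419 bp. Gsx1 came 55 with 3153 bp. The 5 genes after Six3 were Btbd11 (9104 bp in NSC), 9430069I07Rik (8934 bp), Dpp10 (8760 bp), Bcl11a (8524 bp) and Gtf2ird1 (8382 bp), each with 0 in BTSC. The measure rests on 1 library per culture.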

How the data were processed

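The submitters' processing notes name Bowtie, ChIPseeker, bcl2fastq 2.17.1.14 and build mm10. The sources used here do not give the peak caller or its settings. For each of 4 libraries the authors deposited a peak list, in narrowPeak form for TLX and broadPeak form for H3K27ac. Its deposited columns are a score, a fold (ratio) over background, the −log10 of p and the −log10 of q, and for TLX the summit's offset. Fold and −log10 q were read within each list alone. Precision is limited by 1 library per group.

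Peaks reaching into 100 kb around each gene body were taken, overlaps needed 1 bp, and covered base pairs were counted over merged peaks cut to the window (Python 3.11.15, pandas 2.3.3, scipy 1.17.1). The interval code was tested on simulated data. Genes came from RefSeq (GRCm38.p6), and starts from its promoter table. No genome sequence was used, so peak sequences are not shown. Members, gene lists, motifs and the rule for named genes were chosen with earlier results of these data known. That rule names all members, neighbours at their peaks, listed genes whose class differs, and the 5 genes most like Six3. Genes named beyond it, such as Msi1, Nkx2-1 and Six6, were chosen after their values were seen. Alternatives covered the window, q, the definition of gene ends, joined peaks, scaling and equal peak numbers.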

Additional observations from a re-analysis of the deposited data

How the results depend on the processing

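Of 48 counts and shares recomputed under an alternative, 35 stayed within 1.5 times the count, or within the interval of the share. With windows of 10, 50 and 250 kb, TLX peaks of BTSC lay near 1, 1 and 4 of the 9 members, beside 5.12%, 10.2% and 29.7% of all genes. TLX peaks of NSC lay within 10 kb of 5, beside 24.8%. With equal numbers of TLX peaks, 2 members had one in BTSC, beside 16.1% of genes, and 4 in NSC, beside 15.9%. At the transcription start alone, 2 of 8 members had H3K27ac in the NSC list only, beside 2.21% of genes. Members called lower in BTSC numbered 5 with windows of 25 and 250 kb, beside 14.2% and 10.9% of genes with any covered bp. Dlx1 and Dlx2 were the 2 added. Those called higher numbered 2, 2 and 3 with 10, 25 and 50 kb, Lhx2 among them in all 3, beside 21.4%, 21.0% and 20%. With a reciprocal overlap of 50%, 61.5% of the members' BTSC and 44.4% of their NSC H3K27ac peaks were shared, beside 60.5% and 61.1% of the whole lists. Six3, Gsx1, Emx2 and Otx1 kept their call in all 8 settings tried for single genes. Dmrta2 had 5723 bp in BTSC and 5970 in NSC with −log10 q of at least 5. The near equality of Gsx2 within 100 kb depended on the setting. Within 50 kb Gsx2 was called lower in BTSC, with 5281 bp against 8901 in NSC. With −log10 q of at least 5 it had 21696 bp in BTSC and 15369 in NSC, short of the 1.5-fold call. No paired analysis was possible because each group is 1 library. The causes were not tested. Unknown depth limits what a missing peak means, above all for the short BTSC TLX list.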
